A study of Arabidopsis thaliana with 12 samples.

Results

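Cytochrome P450 genes were described in Arabidopsis seedlings treated with flg22. Set aside were 15 named genes of the indole glucosinolate, camalexin, aliphatic glucosinolate, iron-mobilization and core phenylpropanoid pathways. Members were the rows of the deposited count table whose gene symbol has the P450 form (CYP, a family number, a subfamily letter and a member number), which 202 of 23739 genes had. Of the 15 names set aside, 12 were present, so 190 members in 38 families remained. Other genes of those pathways stayed in, such as the indole glucosinolate hydroxylase CYP81F3. P450s listed under other symbols, such as CPD or FAH1, are no members and are given only where a pathway needs them. Whole seedlings of 2 genotypes were compared, the double mutant ate1-2 ate2-1 (a1a2), which lacks both arginyl transferases of the Arg/N-degron pathway, and the wild-type accession Col-0 in whose background it stands. Seedlings were 10 days old, had been grown in continuous light and then kept for 24 h in liquid medium, and received 1 µM flg22 or an equal volume of water (mock) for 1 h. The groups were therefore flg22-treated a1a2, mock-treated a1a2, flg22-treated Col-0 and mock-treated Col-0, with 3 replicates each and 50 pooled seedlings per genotype and treatment, and the mutant was represented by 1 allele combination. In such bulk samples, fewer cells of a type and less RNA per cell cannot be told apart.

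Most plant P450s are haem enzymes of the endoplasmic reticulum that insert an oxygen atom into a small molecule, with electrons supplied by a P450 reductase. Families that arose long ago build or inactivate hormones, sterols, carotenoids and cuticle lipids. The large families CYP71, CYP81, CYP705 and CYP706 grew by tandem duplication and act mostly in specialized metabolism, and many of their members have no assigned substrate. The flagellin-derived peptide flg22 is perceived at the plasma membrane and sets off pattern-triggered immunity (PTI).

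The 12 libraries held 20285662 to 22433536 counts. ATE1 and ATE2, the genes mutated in a1a2, were each lower in every a1a2 library than in every Col-0 library, with log2 fold changes of -3.11 and -3.91 in mock. Shoot markers (RBCS1A, CA1 and LHCB2.1) and root markers (EXPA7, COBL9, CASP1 and WER) were present in all groups, and none of the 7 passed the test in a comparison. The seed storage gene CRA1 averaged 4.90 ± 4.46 CPM in mock-treated a1a2 and 0.128 ± 0.115 CPM in mock-treated Col-0 (SD, n = 3 each, adjusted p = 0.481), and SESA1 was too low to be tested. Levels are given as CPM, the counts scaled to a common library size with TMM factors, which assume that most genes do not change. Genes counted as differentially expressed (DEGs) where edgeR's quasi-likelihood test gave an adjusted p under 0.05 over all 20439 tested genes and the groups differed by over 1.5-fold. Of the 190 members, all but 36 passed the filter on low counts. Those 36 averaged at most 0.35 CPM, and a difference in them was not detectable at this depth.

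Together the members took 0.558% to 0.677% of all counts in flg22-treated a1a2 and 0.324% to 0.378% in mock-treated a1a2. In Col-0 they took 0.561% to 0.664% after flg22 and 0.358% to 0.397% in mock. Their summed level was 6903 ± 859 CPM in flg22-treated a1a2 and 3299.5 ± 256.0 CPM in mock-treated a1a2, and it was 6667 ± 499 CPM in flg22-treated Col-0 and 3417 ± 305 CPM in mock-treated Col-0 (SD, n = 3 each). This difference was carried by a pair of neighbouring genes. Without CYP706A1 and CYP706A2, the sum was 3065 ± 238 against 2972 ± 203 CPM in a1a2 and 3340 ± 233 against 3121 ± 247 CPM in Col-0, and the libraries of the treatments overlapped in both genotypes.

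To ask how these genes responded to flg22, treated seedlings were compared with mock-treated ones in each genotype. In a1a2, 22 members were upregulated and 28 downregulated, which is 14.3% and 18.2% of the members tested, against 13.9% and 7.29% of all tested genes (32.5% against 21.2% in either direction). In Col-0, 21 were upregulated and 27 downregulated, 13.6% and 17.5% of the members, against 13.9% and 7.06% of all tested genes (31.2% against 21% in either direction). The share of upregulated members was thus near the background, and the share of downregulated members was above it in both genotypes. The median log2 fold change of the tested members was -0.02 in a1a2 and 0.08 in Col-0, and that of all tested genes was -0.002 and -0.015. Of the members, 43 were DEGs in both genotypes, all with the same sign, 7 were DEGs only by the test in a1a2 and 5 only by the test in Col-0, and these 12 also had the same sign in the other genotype. CPM did not overlap between treated and mock-treated libraries for 49 of the 50 DEGs in a1a2, CYP71B26 being the exception, and for all 48 in Col-0. Each call had the same sign within all 3 replicate numbers. Both counts are of genes already selected by the test, so they give it no separate support. With the replicate number as a block, which takes out differences shared by libraries of the same number, 59 members were called in a1a2 (33 down) and 60 in Col-0 (32 down), against 24.8% (9.36% down) and 24.6% (9.27% down) of all tested genes. Scaling to library size alone shifted the median of all tested genes by -0.254 in a1a2 and -0.249 in Col-0 and changed the balance of the calls to 18 up and 39 down in a1a2 and 16 up and 38 down in Col-0, against backgrounds of 10.8% up and 16.3% down and of 11% up and 16.4% down. Directions below are therefore relative to the median gene.

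**Figure D1:**
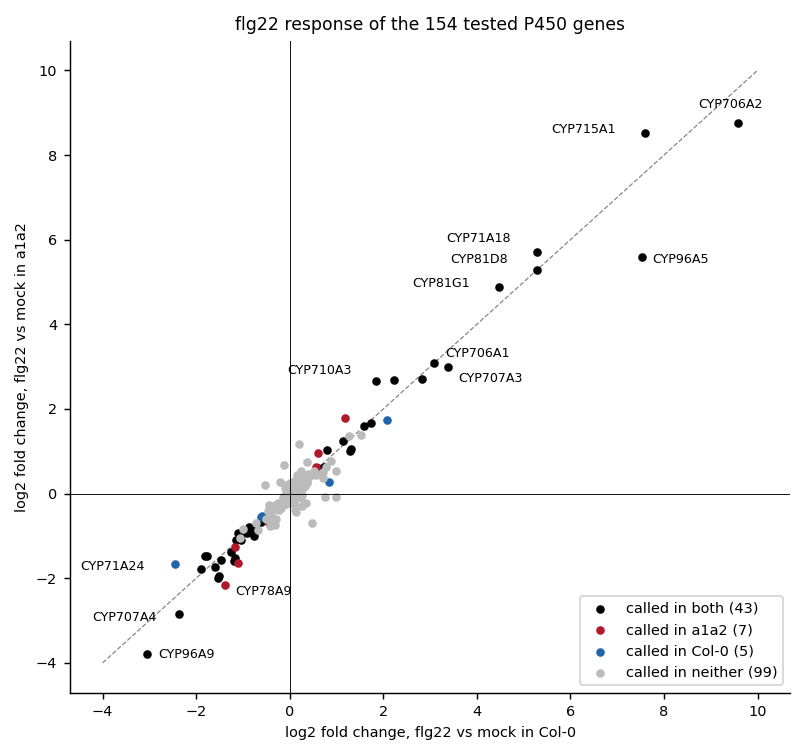
Log2 fold change after flg22 of the tested members in a1a2 (vertical axis) and in Col-0 (horizontal axis); each point is a gene, coloured by the genotype in which it was a DEG, and the dashed line marks equal change. The 43 genes called in both genotypes have the same sign in each, from CYP96A9 at the lower left to CYP706A2 at the upper right.

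DEGs lay in many families, and their spread was not set against family size. Families with 1 member, 14 in all, could not hold both directions. Of the 38 families, 35 had a tested member. No DEG in either genotype was found in 21 of the 38, which include CYP79, CYP93 and CYP724, the families without a tested member. In 7 families there were upregulated and downregulated members at once in both genotypes, namely CYP71, CYP72, CYP81, CYP96, CYP706, CYP707 and CYP710. CYP71, the largest family, had 7 DEGs up and 7 down among 34 tested members in a1a2 and 8 up and 7 down in Col-0. CYP705, with 20 tested members the second largest and some of whose genes oxidize root triterpenes, had 1 DEG in each genotype, CYP705A2 up in a1a2 (0.96, adjusted p = 0.0141, and 0.0665 without replicate 1 of mock-treated a1a2) and CYP705A21 down in Col-0 (-0.60, and -0.54 to -0.56 with replicate 2 of flg22-treated Col-0 or mock replicate 2 or 3 left out, under the fold threshold). CYP89 and CYP78 held only downregulated DEGs. In a1a2 these were 2 of 5 and 2 of 6 tested members, and in Col-0 2 of 5 and 1 of 6. Of all tested genes, 7.29% were downregulated in a1a2 and 7.06% in Col-0. Each CYP78 call was lost without single libraries, as given below. CYP86 and CYP712 also held only downregulated DEGs, 1 in each genotype, as did CYP88 with 1 in a1a2 and CYP709 with 1 in Col-0. CYP76 and CYP715 held only upregulated ones, 1 in each genotype.

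**Figure D2:**
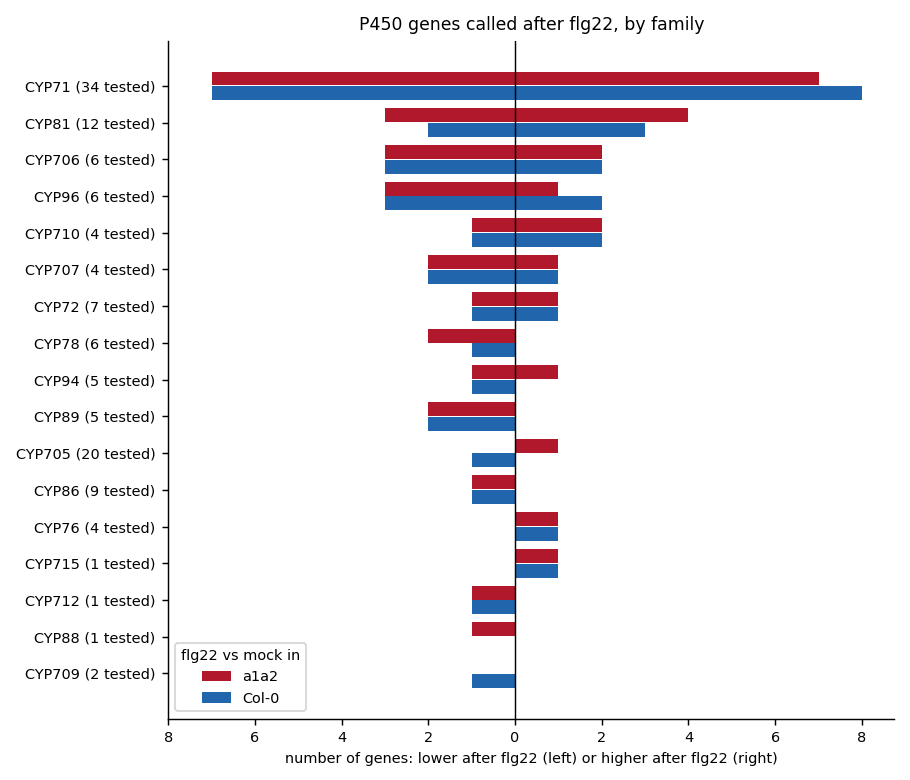
Number of DEGs after flg22 in each family with at least 1 DEG, with downregulated genes to the left and upregulated genes to the right of 0; the upper bar of each pair is a1a2 and the lower bar Col-0. CYP71 has 7 up and 7 down in a1a2, and CYP78, CYP86, CYP88, CYP89, CYP709 and CYP712 have bars on the left only.

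The most abundant member in every group, per kilobase of coding sequence, was CYP706A1, a gene with no assigned substrate. CYP706A1 measured 2947, 3145 and 2233 CPM in flg22-treated a1a2, against 345.4, 370.2 and 259.4 CPM in mock-treated a1a2, and 2468, 2730 and 2307 CPM in flg22-treated Col-0, against 281.2, 365.2 and 237.4 CPM in mock-treated Col-0. Every treated library lay above every mock library (log2 fold change 3.09 ± 0.22 in each genotype, SE, adjusted p = 8.28e-07 in a1a2 and 9.26e-07 in Col-0). Its neighbour CYP706A2 was nearly silent without flg22. CYP706A2 measured 1129, 1184 and 874.2 CPM in flg22-treated a1a2, against 1.18, 3.90 and 2.27 CPM in mock-treated a1a2, and 992.8, 770.5 and 714.0 CPM in flg22-treated Col-0, against 1.13, 1.02 and 1.06 CPM in mock-treated Col-0. This was the largest fitted change of any member, with a log2 fold change of 8.76 ± 0.40 in a1a2 (adjusted p = 3.73e-08) and 9.58 ± 0.42 in Col-0 (adjusted p = 4.08e-08). Per kilobase of coding sequence CYP706A2 stood below the 10 most abundant members in mock and second after flg22 in both genotypes, at 672.0 CPM per kilobase in a1a2 and 522.3 in Col-0. The coding sequences of CYP706A1 and CYP706A2 are 97.7% identical over the 94.1% that could be aligned, and both had fractional counts, so reads may have been divided between them. Their summed counts rose by a log2 fold change of 3.55 ± 0.22 in a1a2 (adjusted p = 3.17e-07) and 3.49 ± 0.22 in Col-0 (adjusted p = 4.16e-07). The other CYP706A genes that were tested lie in a separate tandem group on the same chromosome and went down or stayed uncalled. CYP706A6 measured 39.1, 48.9 and 30.4 CPM in flg22-treated a1a2, against 128.1, 168.0 and 113.8 CPM in mock-treated a1a2, and 30.5, 54.1 and 29.4 CPM in flg22-treated Col-0, against 127.1, 191.5 and 104.2 CPM in mock-treated Col-0. CYP706A4, CYP706A5 and CYP706A6 all fell in both genotypes, with log2 fold changes of -0.79, -1.47 and -1.79 in a1a2 and -0.87, -1.76 and -1.89 in Col-0, while the adjacent CYP706A7 had 0.21 and 0.25 and was not called.

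The 300 bases before the annotated gene start are shown for 5 members with a large rise and 2 with a large fall, chosen with their W-box counts known, to show the upstream sequence on which the motif counts rest. W-boxes, the binding motif of WRKY transcription factors (searched as TTGACC and TTGACT on both strands), are in capitals. The upregulated genes are CYP706A2 (chr4:11934669-11934968, plus strand), CYP706A1 (chr4:11929059-11929358, plus strand), CYP707A3 (chr5:18371022-18371321, minus strand), CYP81D8 (chr4:17571744-17572043, minus strand) and CYP71A18 (chr1:3909339-3909638, minus strand), and the downregulated ones are CYP706A6 (chr4:7316872-7317171, minus strand) and CYP707A2 (chr2:12499724-12500023, minus strand), in coordinates of RefSeq's TAIR10.1.
CYP706A2: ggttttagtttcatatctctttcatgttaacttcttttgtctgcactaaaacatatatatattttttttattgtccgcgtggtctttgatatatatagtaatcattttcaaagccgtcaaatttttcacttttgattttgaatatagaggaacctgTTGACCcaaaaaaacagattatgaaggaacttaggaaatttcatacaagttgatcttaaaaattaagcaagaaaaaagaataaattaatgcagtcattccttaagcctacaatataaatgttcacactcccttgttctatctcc
CYP706A1: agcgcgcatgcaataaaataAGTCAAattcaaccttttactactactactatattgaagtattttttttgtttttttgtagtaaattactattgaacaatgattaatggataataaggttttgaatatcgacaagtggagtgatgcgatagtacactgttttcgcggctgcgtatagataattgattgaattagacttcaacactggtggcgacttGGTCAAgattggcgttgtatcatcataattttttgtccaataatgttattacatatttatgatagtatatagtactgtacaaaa
CYP707A3: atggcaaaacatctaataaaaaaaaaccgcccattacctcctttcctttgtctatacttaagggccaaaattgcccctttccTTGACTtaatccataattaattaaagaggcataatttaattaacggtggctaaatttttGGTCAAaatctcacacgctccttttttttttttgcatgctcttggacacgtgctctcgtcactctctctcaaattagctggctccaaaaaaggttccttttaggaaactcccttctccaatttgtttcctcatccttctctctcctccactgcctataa
CYP81D8: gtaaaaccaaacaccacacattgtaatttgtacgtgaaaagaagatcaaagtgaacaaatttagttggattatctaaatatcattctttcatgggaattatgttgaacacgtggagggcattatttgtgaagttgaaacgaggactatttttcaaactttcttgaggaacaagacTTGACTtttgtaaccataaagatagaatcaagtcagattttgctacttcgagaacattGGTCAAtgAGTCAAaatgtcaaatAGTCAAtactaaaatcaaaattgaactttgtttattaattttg
CYP71A18: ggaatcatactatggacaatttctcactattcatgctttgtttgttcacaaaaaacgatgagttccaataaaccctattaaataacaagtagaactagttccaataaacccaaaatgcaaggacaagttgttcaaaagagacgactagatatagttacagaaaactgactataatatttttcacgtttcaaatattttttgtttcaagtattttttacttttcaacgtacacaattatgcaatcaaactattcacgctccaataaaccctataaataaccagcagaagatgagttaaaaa
CYP706A6: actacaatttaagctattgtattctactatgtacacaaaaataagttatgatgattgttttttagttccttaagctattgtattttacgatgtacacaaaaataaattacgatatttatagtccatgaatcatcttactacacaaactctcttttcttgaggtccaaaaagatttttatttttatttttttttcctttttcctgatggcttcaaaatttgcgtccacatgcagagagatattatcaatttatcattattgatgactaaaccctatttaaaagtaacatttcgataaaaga
CYP707A2: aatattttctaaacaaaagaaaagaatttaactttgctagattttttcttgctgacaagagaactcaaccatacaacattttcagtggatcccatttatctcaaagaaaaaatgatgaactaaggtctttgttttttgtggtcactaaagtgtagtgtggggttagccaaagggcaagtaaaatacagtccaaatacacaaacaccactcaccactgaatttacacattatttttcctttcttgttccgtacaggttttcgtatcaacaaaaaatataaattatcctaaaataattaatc
CYP706A2 and CYP706A1 differ in these windows although their coding sequences are nearly alike, with 1 W-box in CYP706A2 at -144 and 2 in CYP706A1 at -280 and -84, counted from the gene start. CYP707A3 holds 2, CYP81D8 holds 4, and the windows of CYP71A18, which rose, and of CYP706A6 and CYP707A2, which fell, hold none. Over all members, 11 of the 19 genes upregulated in both genotypes had a W-box in this window (57.9%), and 2 of the 24 downregulated in both had one (8.3%), CYP81D5 and CYP71B11. The share was 33.3% among the 99 tested members called in neither genotype and 32.3% among 27443 protein-coding genes. The G-box CACGTG was found in 4 of the 19 (21.1%) and in 0 of the 24, against 7.1% of all protein-coding genes. The core of the as-1 element (TGACG on either strand, which can share letters with the other 2 motifs) was in 26.3% of the upregulated and 16.7% of the downregulated members, against 21.3% of all, and the CGCG element CGCGTT was in none of either, against 3.1% of all. These counts describe letters in a fixed window and were not tested, and genes of 1 tandem group share ancestry.

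Other members with a large rise were close to undetected in mock. CYP715A1, the sole member of its family, had 129, 156 and 148 counts in flg22-treated a1a2, against 0, 1 and 0 in mock-treated a1a2, and 177, 75 and 139 counts in flg22-treated Col-0, against 0, 1 and 1 in mock-treated Col-0. The ratio was 519 in a1a2 (95% exact counting interval 92.6 to 20539, adjusted p = 8.01e-07) and 233 in Col-0 (64.1 to 1932, adjusted p = 1.25e-06), where the intervals cover counting error only. The mock-treated libraries held 1 count of it in all in a1a2 and 2 in Col-0, and the ratio was 334 without replicate 1 of mock-treated a1a2, at least 58.6 against 3 counts per library without replicate 2 of it, and 152 without replicate 1 of mock-treated Col-0, with the gene called each time. CYP71A18 had 83, 70 and 36 counts in flg22-treated a1a2, against 3, 1 and 0 in mock, and 79, 89 and 39 counts in flg22-treated Col-0, against 2, 3 and 1 in mock. Its ratio was 56.6 in a1a2 (21.7 to 209.9) and 41.1 in Col-0 (18.6 to 113), with adjusted p-values of 4.82e-05 and 5.59e-05, and without replicate 1 of mock-treated a1a2 the ratio in a1a2 was 145.7 (adjusted p = 0.000221). CYP96A5 was listed at 0 in all mock-treated Col-0 libraries and rose to 32, 18 and 12 counts in flg22-treated Col-0, at least 8.27-fold higher when set against 3 counts per library (adjusted p = 0.000706). In a1a2 it had 29, 16 and 11 counts after flg22, against 0, 1 and 0 in mock, a ratio of 67.1 (11.6 to 2697, adjusted p = 0.00135), which was 43.2 without replicate 1 and at least 7.58 without replicate 2 of mock-treated a1a2 (adjusted p = 0.00806 and 0.00689). CYP81G1 averaged 6.00 ± 1.96 CPM in flg22-treated a1a2 and 0.20 ± 0.209 CPM in mock-treated a1a2 (log2 fold change 4.88 ± 0.63, adjusted p = 0.000116), and it changed by 4.47 ± 0.61 in Col-0 (adjusted p = 0.000196). CYP81G1 overlaps 2 other annotated genes on the opposite strand, and since the counting is not stated to use strand, reads of these genes cannot be told apart.

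CYP81D8 measured 289.3, 166.4 and 129.9 CPM in flg22-treated a1a2, against 8.92, 4.33 and 1.75 CPM in mock-treated a1a2. In Col-0 it measured 280.2, 172.2 and 162.2 CPM after flg22, against 8.82, 3.45 and 3.40 CPM in mock. The log2 fold change was 5.28 ± 0.62 in a1a2 (adjusted p = 6.01e-05) and 5.29 ± 0.62 in Col-0 (adjusted p = 6.38e-05). Replicate 1 was the highest of each group, and the log2 ratios within a replicate number ran up to 6.14 in a1a2 and 5.6 in Col-0. CYP81D8 sits at the end of a tandem group of 5 genes in which CYP81H1 and CYP81D5 fell (log2 fold change -0.85 and -0.99 in a1a2, -0.83 and -0.77 in Col-0), and CYP81D4 (-0.45 and -0.40) and CYP81D3 (0.44 and 0.28) were not called. CYP81D11, a gene of another chromosome that overlaps an annotated gene and responds to cis-jasmone, averaged 32.4 ± 10.2 CPM in flg22-treated a1a2 and 101.2 ± 47.4 CPM in mock-treated a1a2 and fell there (-1.64 ± 0.40, adjusted p = 0.00977). In Col-0 it averaged 53.5 ± 17.4 CPM after flg22 and 114.7 ± 37.0 CPM in mock, with a log2 fold change of -1.10 ± 0.39 that missed the threshold (adjusted p = 0.0591). There it was a DEG with library size alone (-1.36, adjusted p = 0.0238), in DESeq2 (adjusted p = 0.0166) and with only the 6 Col-0 libraries (adjusted p = 0.0393). With the replicate block in edgeR it stayed uncalled in Col-0.

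**Figure D3:**
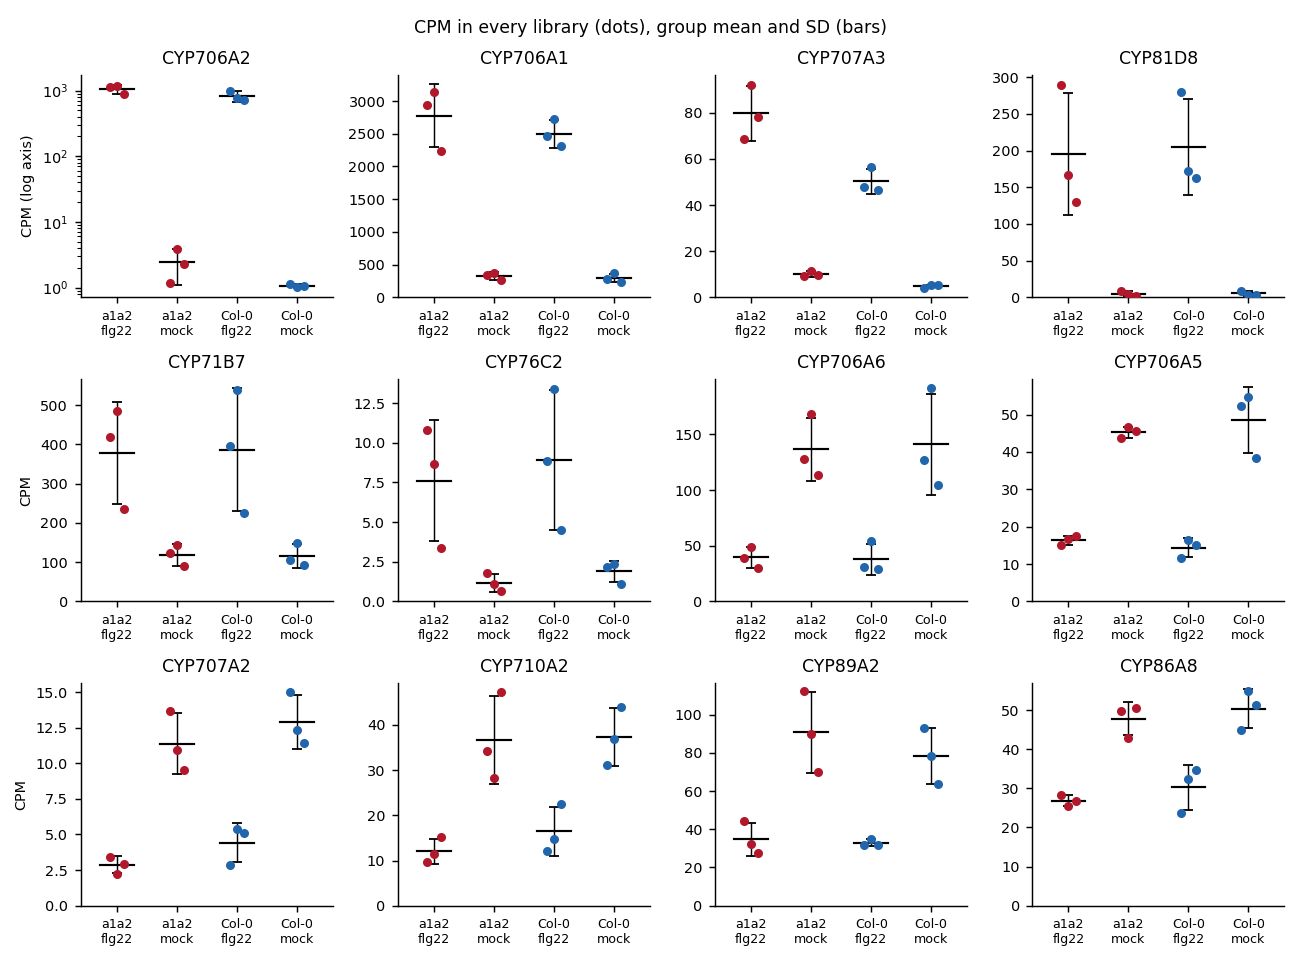
CPM of 12 members in each library (dots), with the group mean (long bar) and SD (capped bar), in flg22-treated and mock-treated a1a2 and then flg22-treated and mock-treated Col-0; the axis is logarithmic for CYP706A2 and linear from 0 for the others. The first 6 genes are high after flg22 and the last 6 are low, with no overlap between treated and mock-treated libraries of a genotype.

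Hormone-inactivating P450s moved in different directions within 1 subfamily. The CYP707A genes encode abscisic acid (ABA) 8′-hydroxylases, which begin the breakdown of ABA. CYP707A3 measured 68.7, 92.2 and 78.4 CPM in flg22-treated a1a2, against 9.16, 11.5 and 9.71 CPM in mock-treated a1a2, and 47.7, 56.4 and 46.6 CPM in flg22-treated Col-0, against 4.17, 5.22 and 5.14 CPM in mock-treated Col-0. It rose by a log2 fold change of 2.98 ± 0.15 in a1a2 (adjusted p = 5.90e-08) and 3.38 ± 0.15 in Col-0 (adjusted p = 4.86e-08). CYP707A2 measured 3.43, 2.24 and 2.91 CPM in flg22-treated a1a2, against 13.7, 10.9 and 9.53 CPM in mock, and 2.83, 5.36 and 5.10 CPM in flg22-treated Col-0, against 15.0, 12.3 and 11.4 CPM in mock. It fell by 1.99 on the log2 scale in a1a2 (adjusted p = 9.57e-05) and by 1.54 in Col-0 (adjusted p = 0.000535). CYP707A4 fell as well, to 0.0504, 0.104 and 0.592 CPM in flg22-treated a1a2, against 2.17, 1.93 and 1.40 CPM in mock-treated a1a2 (log2 fold change -2.84 ± 0.54, adjusted p = 0.00194), and to 0.463, 0.361 and 0.486 CPM in flg22-treated Col-0, against 2.39, 2.66 and 1.74 CPM in mock-treated Col-0 (-2.36 ± 0.49, adjusted p = 0.0037). Its value in a1a2 rested in part on replicate 3 of flg22-treated a1a2, without which it was -4.48 (adjusted p = 3.71e-05). CYP707A1 was not called after flg22 in either genotype (-0.23 in a1a2 and 0.34 in Col-0). Per kilobase of coding sequence CYP707A3 was among the 10 most abundant members in flg22-treated a1a2, at 57.3 CPM per kilobase.

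Of the other hormone lists, the 3 genes of jasmonate breakdown had 1 DEG. CYP94C1, which oxidizes 12-hydroxy-jasmonoyl-isoleucine, rose to 3.98, 6.46 and 4.39 CPM in flg22-treated a1a2, against 2.01, 0.963 and 1.31 CPM in mock-treated a1a2 (log2 fold change 1.78 ± 0.45, adjusted p = 0.011). In Col-0 it measured 4.06, 7.89 and 3.94 CPM after flg22, against 1.90, 1.24 and 3.87 CPM in mock (1.18 ± 0.43, adjusted p = 0.0616). There CYP94C1 was a DEG in DESeq2 without the block (adjusted p = 0.0342) and with it (adjusted p = 0.0161), but not in edgeR with the block. The jasmonoyl-isoleucine hydroxylases CYP94B1 (-0.55 and -0.43) and CYP94B3 (0.75 and 0.38) were not called. For brassinosteroids, the inactivating CYP72C1 rose by 1.04 ± 0.16 in a1a2 (adjusted p = 0.000385) and 0.79 ± 0.16 in Col-0 (adjusted p = 0.00269), and the other inactivating P450, BAS1, was not called (-0.12 and -0.10). With library size alone, CYP72C1 had a log2 fold change of 0.53 in Col-0 and was no DEG there. Of the 6 P450s of brassinosteroid synthesis, 5 of which carry other symbols, 3 fell in a1a2 (CPD, ROT3 and BR6OX2, log2 fold change -0.82, -0.71 and -1.60), 3 fell in Col-0 (CPD, BR6OX1 and BR6OX2, -0.86, -0.86 and -1.52) and 0 rose, with BR6OX1 a DEG in a1a2 with the block (-0.91, adjusted p = 0.023), and the member CYP90D1, a C-23 hydroxylase, had 0.47 and 0.40 and was not called. Of 5 gibberellin P450s, CYP88A3, an ent-kaurenoic acid oxidase, fell in a1a2 (-0.69 ± 0.16, adjusted p = 0.00789). In Col-0 it had -0.45 ± 0.16 (adjusted p = 0.0584) and was a DEG with library size alone in edgeR (-0.70, adjusted p = 0.00437). The other gibberellin P450s were not called. The cytokinin trans-hydroxylases CYP735A1 and CYP735A2 (0.20 and 0.28 in a1a2, 0.32 and 0.14 in Col-0) and CYP711A1 of strigolactone synthesis (0.30 and 0.37) were not called.

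The CYP710A genes encode sterol C-22 desaturases, which make stigmasterol from sitosterol. The adjacent genes CYP710A1 and CYP710A2, 83.2% identical in coding sequence, moved in opposite directions. CYP710A1 measured 13.9, 8.60 and 7.25 CPM in flg22-treated a1a2, against 5.25, 5.17 and 4.33 CPM in mock, and 17.8, 17.4 and 9.28 CPM in flg22-treated Col-0, against 5.99, 5.40 and 6.75 CPM in mock. It rose by 1.01 ± 0.28 in a1a2 (adjusted p = 0.0185, and 0.76 with adjusted p = 0.0541 with library size alone) and 1.29 ± 0.28 in Col-0 (adjusted p = 0.00429). Without replicate 1 of flg22-treated a1a2 the change in a1a2 was 0.65 (adjusted p = 0.108), and without replicate 3 of mock-treated a1a2 it was 0.93 (adjusted p = 0.0665). CYP710A2 measured 9.73, 11.4 and 15.1 CPM in flg22-treated a1a2, against 34.3, 28.2 and 47.4 CPM in mock, and 12.1, 14.8 and 22.5 CPM in flg22-treated Col-0, against 31.1, 36.9 and 43.9 CPM in mock. It fell by 1.60 in a1a2 (adjusted p = 0.000795) and by 1.18 in Col-0 (adjusted p = 0.00553) on the log2 scale. CYP710A3 had 22, 8 and 14 counts in flg22-treated a1a2, against 3, 3 and 2 in mock-treated a1a2 (ratio 6.59, 3.07 to 16.2, adjusted p = 0.00253), and rose by 1.84 ± 0.48 in Col-0 (adjusted p = 0.0135, and 0.0626 without replicate 2 of flg22-treated Col-0 or 0.0511 without replicate 3 of mock-treated Col-0). Its coding sequence is 95.8% identical to that of CYP710A4, which was not called (-0.08 and 0.99), and both had fractional counts. The sum of this pair rose in Col-0 (1.16 ± 0.32, adjusted p = 0.0189) and had 0.21 ± 0.30 in a1a2 (adjusted p = 0.679), so the rise of CYP710A3 in a1a2 was not seen in the pair as a whole. CYP51G1, the sterol 14-demethylase, was not called (-0.09 and -0.15).

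**Figure D4:**
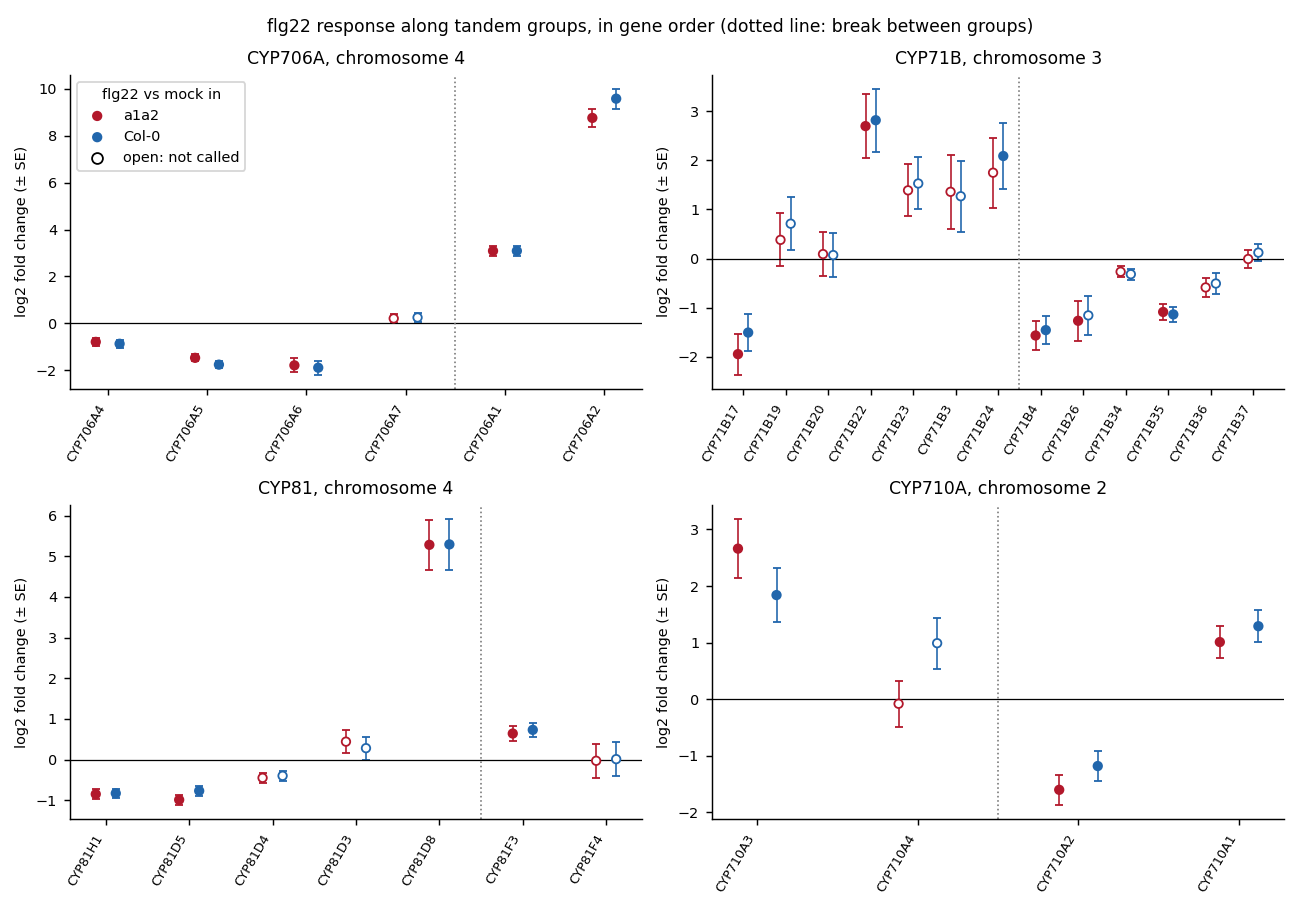
Log2 fold change after flg22 (± SE of the fit) of tested members in 4 sets of tandem genes, in gene order along the chromosome, with a1a2 left of Col-0 at each gene and a dotted line where 1 tandem group ends and the next begins. Filled points were DEGs; CYP706A1 and CYP706A2 lie above 0 and CYP706A4 to CYP706A6 below it, and CYP710A2 and CYP710A1 lie on opposite sides of 0.

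Genes of 1 tandem group moved in the same or in opposite directions. Of the members, 102 lay in 30 tandem groups of the same family with at most 1 other gene between neighbours. Among the 118 pairs of tested genes of 1 subfamily within a tandem group, 8 had both genes called in both genotypes in the same direction, 5 had both called in opposite directions, 44 had 1 such gene and 61 had none. Among 511 pairs of the same subfamily that were not in tandem, these numbers were 28, 39, 157 and 287. Tandem pairs were all pairs within a group, not only adjacent genes. A pair with 1 such gene is not shown to differ, since the other gene may have narrowly missed the threshold. The median absolute difference in log2 fold change, averaged over the genotypes, was 0.745 for tandem and 0.73 for other pairs, and pairs share genes, so no test was made. On chromosome 3, DEGs lay in a group of 9 CYP71B genes and in the next group of 6. In the first, CYP71B22 rose by 2.70 ± 0.66 in a1a2 (adjusted p = 0.00977) and 2.82 ± 0.64 in Col-0 (adjusted p = 0.00666). Its neighbours CYP71B23, CYP71B3 and CYP71B24 had log2 fold changes of 1.39, 1.36 and 1.75 in a1a2 and 1.53, 1.27 and 2.09 in Col-0, of which only CYP71B24 in Col-0 passed (adjusted p = 0.0368, and 0.246 with a log2 fold change of 1.10 when replicate 1 of flg22-treated Col-0 was left out, 0.126 and 0.104 when mock replicate 2 or 3 of Col-0 was, 0.0516 without replicate 2 of flg22-treated a1a2, and 0.0586 with library size alone). With the replicate number as a block, these 3 were DEGs in a1a2 (adjusted p = 0.000125, 1.91e-05 and 9.11e-05), and CYP71B23 and CYP71B3 also in Col-0 (0.000141 and 2.04e-05). At the far end of the group CYP71B17 fell (-1.95 and -1.51). In the next group CYP71B4 fell to 11.3, 13.2 and 7.01 CPM in flg22-treated a1a2, against 31.3, 40.6 and 21.5 CPM in mock, and to 13.0, 15.8 and 10.6 CPM in flg22-treated Col-0, against 36.1, 44.5 and 28.1 CPM in mock (log2 fold change -1.57 and -1.46). CYP71B35 fell with it (-1.09 and -1.14), and CYP71B26 fell in a1a2 (-1.27 ± 0.41, adjusted p = 0.0376, and 0.0504 to 0.119 without any 1 of 7 libraries) and had -1.16 in Col-0 (adjusted p = 0.0523), where it was a DEG with the block (-1.17, adjusted p = 4.99e-07), with library size alone (-1.41, adjusted p = 0.0214), in DESeq2 (adjusted p = 0.0151) and with only the 6 Col-0 libraries (adjusted p = 0.0437). On chromosome 1, CYP71B7 and CYP71B29 rose (1.68 and 0.61 in a1a2, 1.74 and 0.61 in Col-0) beside CYP71B28, which fell (-0.66 and -0.62). The calls of CYP71B28 and CYP71B29 were lost in both genotypes without single libraries (down to -0.55 and -0.47 for CYP71B28 and 0.49 and 0.46 for CYP71B29), and CYP71B29 was no DEG with library size alone (0.35 and 0.37).

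P450s of indole metabolism that were not set aside also responded. CYP71B6, which converts indole-3-acetonitrile, rose to 100.1, 72.8 and 61.9 CPM in flg22-treated a1a2, against 34.5, 36.6 and 41.8 CPM in mock, and to 144.1, 91.6 and 67.0 CPM in flg22-treated Col-0, against 38.8, 45.3 and 37.8 CPM in mock (log2 fold change 1.06 ± 0.25, adjusted p = 0.00823, and 1.31 ± 0.25, adjusted p = 0.00224). CYP81F3, an indole glucosinolate hydroxylase, rose by 0.64 ± 0.18 in a1a2 (adjusted p = 0.0184) and 0.73 ± 0.18 in Col-0 (adjusted p = 0.00917). With library size alone CYP81F3 had 0.38 and 0.48 and was no DEG in either genotype, and its call in a1a2 was lost without replicate 2 of flg22-treated a1a2 (0.52) or replicate 1 of mock-treated a1a2 (0.50). CYP81F4, which hydroxylates the indole ring at another position, had -0.03 and 0.01 and was not called.

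Cuticle and growth P450s fell or did not move past the test. Of 7 tested genes for cutin, suberin and wax, 1 was a DEG, with a median log2 fold change of 0.08 in a1a2 and 0.06 in Col-0 over the list. CYP86A8, a fatty acid omega-hydroxylase needed for the cuticle, fell to 28.4, 25.4 and 26.8 CPM in flg22-treated a1a2, against 49.9, 42.9 and 50.6 CPM in mock (log2 fold change -0.83 ± 0.14, adjusted p = 0.000816). In Col-0 it fell to 23.8, 32.4 and 34.7 CPM, against 45.0, 54.8 and 51.4 CPM in mock (-0.73 ± 0.14, adjusted p = 0.00194). The related CYP86A1 (0.08 and 0.06), CYP86A2 (-0.17 and 0.10), CYP86A4 (0.23 and 0.14), CYP86A7 (0.23 and 0.06), CYP86B1 (0.28 and -0.20) and CYP77A6 (-0.29 and 0.27) were not called. The 6 CYP78A genes, which promote organ and seed growth, had a median of -0.76 in a1a2 and -0.52 in Col-0. CYP78A6 fell to 1.36, 1.67 and 2.17 CPM in flg22-treated a1a2, against 2.57, 4.95 and 6.95 CPM in mock, and to 0.514, 0.722 and 1.75 CPM in flg22-treated Col-0, against 2.71, 3.05 and 4.88 CPM in mock (log2 fold change -1.47, adjusted p = 0.0296, and -1.82, adjusted p = 0.0138). CYP78A9 fell in a1a2 (-2.15 ± 0.61, adjusted p = 0.0203) and had -1.39 ± 0.60 in Col-0, where it was a DEG with the block (adjusted p = 0.00148) and with library size alone (-1.64, adjusted p = 0.044). Both a1a2 calls were lost without replicate 1 or 2 of flg22-treated a1a2 or replicate 3 of mock-treated a1a2, and that of CYP78A6 also without replicate 2 of mock-treated a1a2, with adjusted p-values of up to 0.119 for CYP78A6 and 0.0819 for CYP78A9. The Col-0 call of CYP78A6 was lost without replicate 2 of flg22-treated Col-0 (adjusted p = 0.0569). CYP78A5 (-0.83 and -0.99), CYP78A7 (0.45 and 0.15), CYP78A8 (-0.13 and -0.05) and CYP78A10 (-0.70 and 0.47) were not called. In Col-0, CYP78A5 was a DEG with library size alone in edgeR (-1.23, adjusted p = 0.0485) and in DESeq2 with the block (-1.12, adjusted p = 0.00955).

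The remaining named fallers were CYP89A2, CYP96A12 and CYP71B12, with log2 fold changes of -1.38, -1.53 and -1.73 in a1a2 and -1.25, -1.17 and -1.60 in Col-0, all DEGs in both. CYP89A9, which forms dioxobilin-type chlorophyll catabolites, had -0.87 ± 0.34 in a1a2 (adjusted p = 0.0827) and -0.67 ± 0.34 in Col-0 (adjusted p = 0.176) and was a DEG in both with the block (adjusted p = 0.0166 and 0.0464). CYP96A9 was at 3 counts in each flg22-treated a1a2 library, against 110, 27 and 23 counts in mock-treated a1a2, which is 14.8-fold lower (7.62 to 33.0, adjusted p = 0.000993). Replicate 1 of mock-treated a1a2 was far above the other mock-treated a1a2 libraries, and without it the gene was 7.21-fold lower (adjusted p = 0.000464). In Col-0 it averaged 0.119 ± 0.0797 CPM after flg22 and 1.02 ± 0.116 CPM in mock (adjusted p = 0.00779). Of the monoterpenol oxidases, CYP76C2 rose to 10.8, 8.65 and 3.40 CPM in flg22-treated a1a2, against 1.78, 1.09 and 0.656 CPM in mock, and to 8.84, 13.4 and 4.52 CPM in flg22-treated Col-0, against 2.18, 2.39 and 1.10 CPM in mock (log2 fold change 2.68 ± 0.55, adjusted p = 0.00324, and 2.23 ± 0.52, adjusted p = 0.0075). Its neighbour CYP76C1 had -1.06 in a1a2 (adjusted p = 0.287) and -1.07 in Col-0 (adjusted p = 0.275) and was a DEG in both genotypes with the block (-1.04, adjusted p = 0.000431, and -0.99, adjusted p = 0.00054). CYP76C4 was not called (0.53 and 0.25).

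Members of carotenoid, lignin and triterpene metabolism were not called. The carotenoid hydroxylases CYP97A3 (-0.04 and -0.09) and CYP97B3 (-0.14 and -0.12), the lignin enzyme CYP98A3 (-0.01 and -0.05), the phenolamide enzyme CYP98A8 (-0.03 and 0.00) and the 5 tested genes of triterpene synthesis (CYP705A1, CYP705A5, CYP708A2, CYP71A16 and CYP716A1, between -0.18 and 0.29 in a1a2 and between -0.52 and 0.11 in Col-0) were not called in either genotype. CYP84A4 had -0.07 in a1a2 and 0.75 in Col-0 (adjusted p = 0.0866) and passed in Col-0 with the block (0.73, adjusted p = 0.0485). FAH1, the lignin P450 listed under its own symbol, fell in both genotypes (-0.95, adjusted p = 0.00539, and -0.73, adjusted p = 0.0229). The P450 reductases ATR1 and ATR2 differed. ATR2 measured 2098, 2121 and 1545 CPM in flg22-treated a1a2, against 110.3, 121.9 and 125.6 CPM in mock, and 2153, 1835 and 1539 CPM in flg22-treated Col-0, against 104.3, 125.3 and 137.4 CPM in mock (log2 fold change 4.01, adjusted p = 5.53e-08, and 3.91, adjusted p = 7.73e-08), whereas ATR1 had 0.14 and 0.25 and was not called.

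To find members that depended on the genotype, the genotypes were compared separately for the mock and the flg22 libraries. In mock, 1 of the tested members was a DEG, upregulated in a1a2, against 0.166% of all tested genes (0.137% up and 0.0294% down). With the replicate number as a block it was 4 members, 2 up and 2 down, against 0.959% of all tested genes (0.445% up and 0.514% down). After flg22, 0 members were DEGs, against 0.137% of all tested genes (0.103% up and 0.0342% down). With the block there were 5, 1 up and 4 down, against 0.827% (0.308% up and 0.519% down).

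The DEG was CYP707A3, the ABA hydroxylase that rose after flg22. In mock it was higher in a1a2 within each replicate number, with log2 ratios of 1.12, 1.13 and 0.90, and no a1a2 library overlapped a Col-0 library (log2 fold change 1.06 ± 0.15, adjusted p = 0.0151, and 0.000123 with the block). The call without the block was lost when replicate 2 of mock-treated a1a2 or replicate 1, 2 or 3 of mock-treated Col-0 was left out (adjusted p = 0.072, 0.0635, 0.0689 and 0.0699). After flg22 the log2 ratios were 0.52, 0.71 and 0.75, again without overlap (0.67 ± 0.14, adjusted p = 0.171, and 0.66, adjusted p = 0.00102, with the block). CYP707A1, another ABA hydroxylase, measured 7.89, 4.51 and 3.98 CPM in mock-treated a1a2, against 2.59, 2.66 and 2.46 CPM in mock-treated Col-0 (1.09 ± 0.25, adjusted p = 0.261), and was a DEG with the block (1.06, adjusted p = 0.037). After flg22 it measured 5.19, 3.81 and 4.98 CPM in a1a2, against 3.29, 2.73 and 3.74 CPM in Col-0, and was not called in either fit.

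CYP71A19 was the member furthest below Col-0. It measured 1.26, 1.27 and 1.92 CPM in mock-treated a1a2, against 4.61, 5.18 and 8.88 CPM in mock-treated Col-0 (log2 fold change -2.06 ± 0.36, adjusted p = 0.0632, and -2.04, adjusted p = 0.00019, with the block). After flg22 it measured 1.31, 0.991 and 2.62 CPM in a1a2, against 6.22, 5.36 and 7.34 CPM in Col-0 (-1.94 ± 0.36, adjusted p = 0.101, and -1.99, adjusted p = 0.000315, with the block). The genotypes did not overlap in either treatment, and flg22 itself left the gene uncalled (0.15 and 0.02). CYP71A19 and CYP81F4 had fractional counts, and each overlaps another annotated gene on the opposite strand. CYP81F4 measured 87.8, 122.6 and 210.3 CPM in mock-treated a1a2, against 152.9, 221.1 and 352.4 CPM in mock-treated Col-0, and 94.2, 97.5 and 220.5 CPM in flg22-treated a1a2, against 205.3, 208.1 and 318.7 CPM in flg22-treated Col-0. The genotypes overlapped, but a1a2 was lower within each replicate number, with log2 ratios of -0.80, -0.85 and -0.74 in mock and -1.12, -1.09 and -0.53 after flg22, and CYP81F4 was a DEG with the block (-0.80, adjusted p = 0.0116, and -0.92, adjusted p = 0.00634). CYP71B22 and CYP71B24 were lower in flg22-treated a1a2 with the block (-0.62, adjusted p = 0.014, and -1.09, adjusted p = 0.034), and without it had -0.68 and -1.25 (adjusted p = 0.997 for both).

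**Figure D5:**
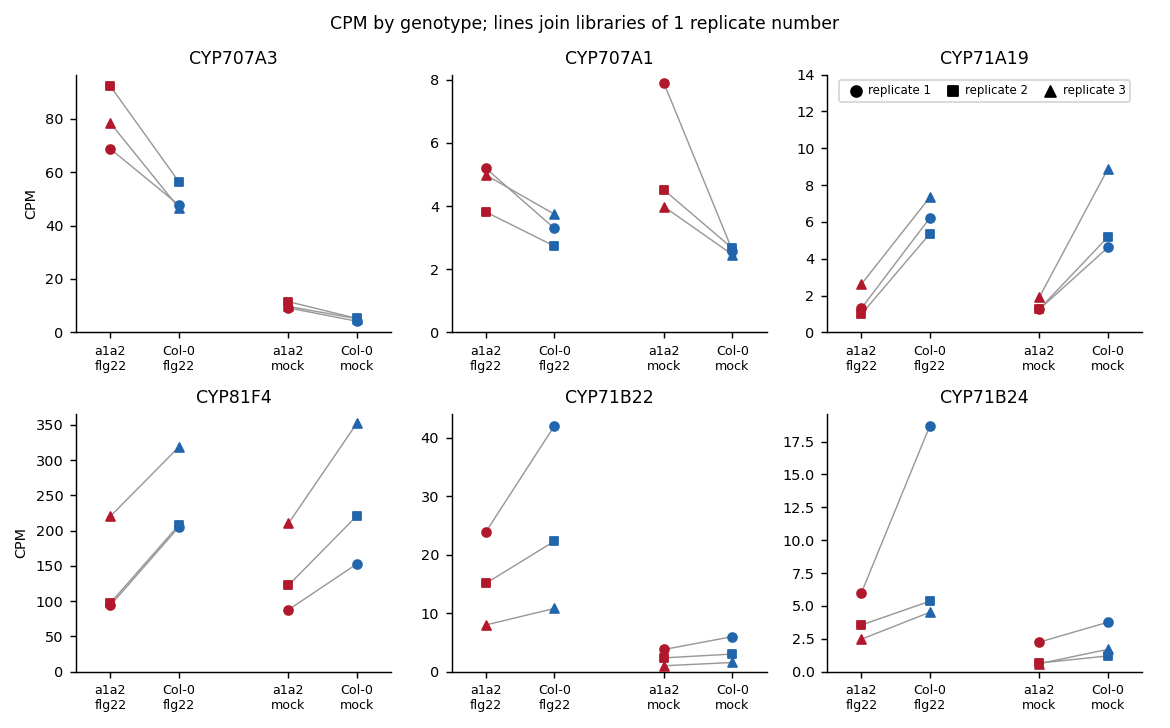
CPM of the 6 members called between the genotypes in either fit, with a1a2 left of Col-0 for flg22 (left pair) and mock (right pair); symbols mark replicate numbers and lines join libraries with the same number. Every line falls from a1a2 to Col-0 for CYP707A3 and CYP707A1 and climbs for CYP71A19, CYP81F4, CYP71B22 and CYP71B24.

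To ask whether the flg22 response itself differed between the genotypes, the interaction was tested. By edgeR, 0 members passed, against 0% of all tested genes, and 0 had an unadjusted p under 0.05, as was the case with DESeq2. With the block 3 members had an unadjusted p under 0.05 and 0 passed. Without the block the smallest p-values were those of CYP707A3 (-0.40), CYP77A6, a cutin hydroxylase (-0.56), and CYP84A4 (-0.82), given as the log2 fold change in a1a2 minus that in Col-0. In edgeR's test their unadjusted p-values were 0.0721, 0.0758 and 0.0807 without the block and 0.00605, 0.0361 and 0.0587 with it. The third member under 0.05 with the block was the sterol desaturase CYP710A2 (-0.39, unadjusted p = 0.0378 in edgeR's test, and 0.275 without the block), and the adjusted p of all 4 was 1 in both fits. The members called in 1 genotype only are therefore not shown to respond differently between the genotypes.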

How the data were processed

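RNA of whole seedlings was sequenced in 12 libraries. According to the study's methods, the provider filtered paired-end reads with SOAPnuke and mapped them with HISAT, and TAIR10 and DESeq2 are named in the submitters' processing notes. The counting tool and annotation are not given in the sources used here. The authors deposited expected counts per gene, not scaled, of which 7.5% were fractional, and reads may thus have been divided among similar genes (35 members had fractional values). The authors' group averages in the same table were not used.

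Expected counts were rounded. Tests used edgeR 4.0.16 in R 4.3.3 (filterByExpr, TMM, robust quasi-likelihood fit of all 12 libraries with 1 mean per group), with Benjamini-Hochberg adjustment over 20439 genes, two-sided. Factors ranged from 0.855 to 1.157. The study's thresholds were kept. SE is the fitted change divided by the root of its F statistic. The fit was tested on simulated data. The methods call the replicates biological without saying whether they were sown separately, and p-values measure the spread between these samples. Ratios within a replicate number used a pseudocount of 0.1 CPM. Bounds were set against 3 counts per library.

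Deviations of same-numbered samples from their group means correlated in every pair of groups (r = 0.218 to 0.66, against -0.549 to 0.154 for other numbers). Deviations within a group cancel out, which lowers the values for other numbers, so these are no separate check. On the same-number values the numbers were taken to pair the samples. The reported calls are from the fit without the block, and values with the number as a block are given where they change a call.

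Members were matched by identifier to RefSeq's TAIR10.1 annotation (190 of 190), which supplied positions and sequences, and coding sequences were compared as nucleotides because no protein table was used. Of the members, 36 overlap another annotated gene, 5 of them on the same strand, and reads in an overlap cannot be assigned with certainty. Among the members called after flg22 in either genotype, 10 overlap a gene, including CYP71B6, CYP72C1 and CYP88A3, and 13 had fractional counts, including CYP71B6. Windows of 300 bases before the gene start were searched for motifs. The printed windows were chosen after their genes' values were seen.

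Members and lists were chosen with earlier results of these data known. Named genes were tested members of the role lists, the 10 largest rises and falls per genotype at a mean of at least 1 CPM, members called between genotypes and the 3 smallest interaction p-values. CYP96A5, CYP96A9 and CYP71A24, the tandem neighbours, CYP705A2, CYP705A21 and the interaction value of CYP710A2 were named after their values were seen. Alternatives were other scalings, other filters, the block, DESeq2 1.42.0, only the 6 libraries of a comparison, a test against the fold threshold, no fold threshold, leaving out each library and, chosen after seeing the data, summing pairs with at least 95% coding identity.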

Additional observations from a re-analysis of the deposited data

How the results depend on the processing

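For flg22, the alternatives called between 28 and 62 members in a genotype. The test against the 1.5-fold threshold moved the counts most, to 32 in a1a2 (16 lower) and 28 in Col-0 (13 lower). Leaving out 1 library gave 46 to 52 in a1a2 (19 to 24 higher, 25 to 30 lower) and 45 to 54 in Col-0 (18 to 26 higher, 24 to 29 lower), and 41 of the 50 calls in a1a2 and 39 of the 48 in Col-0 were kept without each library in turn. The remaining alternatives stayed within 1.5 times the reported counts. Counts for the fold-threshold test and for left-out libraries stand without the share of all tested genes. They do not show whether the share of downregulated members stayed above that of all tested genes. Library size alone made 31.6% of the calls upregulated in a1a2 and 29.6% in Col-0, in place of 44% and 43.8%, and of the reported calls 46 and 43 were shared with it. With the replicate number as a block, counts were 59 in a1a2 and 60 in Col-0, which kept all 50 and 48 reported calls and added 9 and 12, and the named genes among those are given with their blocked values in the report. The block changed no other call of a named gene.

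For a1a2 against Col-0 in mock, the reported 1 became 4 with the replicate block, 3 with DESeq2, 7 with DESeq2 and the block, 0 with the test against the fold threshold, 0 with only the 6 libraries, and 0 to 2 without 1 library. After flg22, the reported 0 became 5 with the replicate block, 2 with DESeq2, 7 with DESeq2 and the block, and 0 to 1 without 1 library. The DESeq2 counts stand without the share of all tested genes, so they show only how the calls depend on the tool. The interaction gave 0 in every fit run. Of 7134 values of 66 named genes under the alternatives, 7021 kept their side of the threshold, 44 lost and 69 gained the call, and 0 changed sign while called. Members that averaged at most 0.35 CPM were beyond this depth.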

Other observations

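Of the 12 P450s of other pathways that the rule set aside and the table holds, 11 were tested. In a1a2, 5 of them were upregulated and 0 downregulated after flg22, against 13.9% and 7.29% of all tested genes. In Col-0, 6 were upregulated and 0 downregulated, against 13.9% and 7.06% of all tested genes. With the replicate block, CYP79F1 and CYP83A1 of aliphatic glucosinolate synthesis were downregulated in both genotypes (log2 fold change -1.73 and -0.88 in a1a2, -1.66 and -0.67 in Col-0). Among the P450s under other symbols was HPL1, named as a hydroperoxide lyase gene, and activity of its product was not measured. HPL1 fell to 0.551 ± 0.338 CPM in flg22-treated a1a2, against 2.18 ± 1.11 CPM in mock-treated a1a2 (log2 fold change -1.96, adjusted p = 0.00572 in edgeR's quasi-likelihood test). In Col-0 it fell to 0.605 ± 0.132 CPM after flg22, against 1.91 ± 0.292 CPM in mock (-1.65, adjusted p = 0.0147, SD, n = 3 each). AOS, the allene oxide synthase at the start of jasmonate synthesis, measured 195.8 ± 53.3 CPM in flg22-treated a1a2, against 193.5 ± 42.5 CPM in mock-treated a1a2, and had a log2 fold change of 0.02 in each genotype.

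CYP71A24 was called in Col-0 only, with 2, 0 and 2 counts in flg22-treated Col-0, against 6, 8 and 14 counts in mock-treated Col-0, which is 5.87-fold lower (95% exact counting interval 2.05 to 23). The call was lost without replicate 2 of flg22-treated Col-0 (adjusted p = 0.0656) or replicate 3 of mock-treated Col-0 (adjusted p = 0.0773). In a1a2 it had -1.67 (adjusted p = 0.0644) and passed with the replicate block (log2 fold change -1.68, adjusted p = 0.0255) and with library size alone (-1.90, adjusted p = 0.0266).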
